A study of Homo sapiens with 8 samples.

Results

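The genes described here are 60 named protein-coding genes of the long arm of chromosome 21, the arm that also carries HMGN1. They were taken by name, not by how they behaved, and each of the 60 had a row among the 23621 gene rows of the tables. RNA was sequenced from the human leukemia line NALM6, an established line of B-cell precursors, in 8 libraries. All carried a doxycycline-inducible HMGN1 construct, which encoded either the S20,24E mutant (SE), labelled as deficient in nucleosome binding, or wild-type HMGN1 (WT). The groups were SE with doxycycline (DOX), SE with vehicle, WT with DOX and WT with vehicle, with 2 libraries each, lettered A and B and labelled as biological replicates. DOX was given at 100 ng/ml, or vehicle in its place, for 6 h. A group with no construct was not analysed here, and the sources used here do not give how many clones each construct stands for. All cells also come from a single leukemia line and copy number was not measured here, so a gene's level says nothing of gene dose.

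Chromosome 21 is the chromosome present in 3 copies in Down syndrome, and children with Down syndrome have a raised risk of B-cell acute lymphoblastic leukemia. The segment of 21q22 long called the Down syndrome critical region holds HMGN1, whose protein binds nucleosomes and loosens chromatin compaction. Around it lie genes as unlike as the kinase DYRK1A, the transcription factors RUNX1 and ETS2, a cluster of interferon receptors, the superoxide dismutase SOD1 and the amyloid precursor APP. Several of them are studied as dose-sensitive genes.

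Values are FPKM, fragment numbers scaled to transcript length and to all mapped fragments, given by the authors in an unnormalized and a spike-in-normalized table. ERCC spike-ins are synthetic RNAs added in equal amount to RNA from equal cell numbers, so the second scale is meant to be per cell. Spike-ins made up 0.531% to 1.06% of the unnormalized values, with the most in SE DOX letter A, and the median gene stood between 10.5 in SE DOX letter A and 18.8 in WT vehicle letter A on the normalized scale. The unnormalized medians were 14.8 to 15.0 in every library. In bulk samples less RNA per cell and fewer cells cannot be told apart. All 14 B-lineage markers were at 1 FPKM or more (summed level 2585 to 3055 over the libraries), against 0 of 6 T-cell, 0 of 4 erythroid, 0 of 5 fibroblast and 2 of 6 myeloid markers, of which LYZ averaged 2.18. HMGN1 itself did not stand higher where DOX was labelled, at 1421 (A) and 1061 (B) unnormalized FPKM in SE DOX and 1427 (A) and 1066 (B) in SE vehicle, and at 792.9 (A) and 795.3 (B) in WT DOX and 809.2 (A) and 796 (B) in WT vehicle. DOX below therefore means the libraries labelled so. Every SE library stood above every WT library in this row, whereas on the spike-in scale the constructs overlapped. Whether reads of the construct fall in the HMGN1 row was not tested.

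One split between neighbouring genes lay in the interferon receptor cluster, where IFNAR2, IL10RB, IFNAR1 and IFNGR2 follow each other along the chromosome. IFNAR1 and IFNAR2 form the receptor for type I interferons, IL10RB is a shared chain of the receptors for interleukin-10 and type III interferons, and IFNGR2 is the signalling chain of the interferon-gamma receptor. The first 3 were expressed and IFNGR2 was nearly silent. The 250 bases before the annotated start are shown for IFNGR2 and for its expressed neighbours IL10RB and IFNAR1. No window was at hand for IFNAR2. Sequences are from RefSeq on the plus strand of GRCh38.p14, a later build than the hg19 of the expression tables. Capitals mark CCGGAAG or CTTCCGG, a core bound by ETS-family factors, and GGGCGG or CCGCCC, the GC box, searched on both strands.
IFNGR2: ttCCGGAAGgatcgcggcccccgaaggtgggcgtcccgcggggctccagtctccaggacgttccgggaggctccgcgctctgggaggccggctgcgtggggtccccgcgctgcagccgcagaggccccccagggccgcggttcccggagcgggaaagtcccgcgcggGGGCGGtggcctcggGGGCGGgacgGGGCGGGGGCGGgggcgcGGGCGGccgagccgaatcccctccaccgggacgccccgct
IL10RB: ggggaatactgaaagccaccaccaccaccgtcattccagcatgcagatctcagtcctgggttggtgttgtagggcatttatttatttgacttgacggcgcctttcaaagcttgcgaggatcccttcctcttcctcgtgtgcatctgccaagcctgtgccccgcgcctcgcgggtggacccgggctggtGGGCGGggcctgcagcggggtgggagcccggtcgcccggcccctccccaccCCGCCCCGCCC
IFNAR1: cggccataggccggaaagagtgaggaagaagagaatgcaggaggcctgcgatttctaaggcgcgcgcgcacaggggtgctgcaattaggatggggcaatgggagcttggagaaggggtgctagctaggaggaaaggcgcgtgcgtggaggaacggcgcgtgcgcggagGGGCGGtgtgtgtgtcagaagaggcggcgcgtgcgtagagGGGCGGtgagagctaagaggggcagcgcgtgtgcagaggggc
The windows are chr21:33403163-33403412 for IFNGR2, chr21:33266117-33266366 for IL10RB and chr21:33324720-33324969 for IFNAR1, the last before the more downstream of 2 listed starts. Of the windows shown, that of the near-silent gene was the richest. IFNGR2 held 1 ETS match, 5 GC boxes and 37 CG dinucleotides. IL10RB held 0, 3 and 17, and IFNAR1 held 0, 2 and 23. G and C made up 80.4% of the IFNGR2 window, 65.2% of the IL10RB window and 64.8% of the IFNAR1 window. Of 35116 such windows over all genes, 8.52% held the ETS match and 42.6% a GC box, and 96.0% had fewer CG dinucleotides than that of IFNGR2. Among the 50 genes of the set with a window, 10 held the ETS match and 42 a GC box in at least 1 of their windows. A gene can have several windows, so these counts cannot be set against the shares of single windows. A match of letters is a description and shows no binding, and methylation was not measured.

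IFNGR2 was at 0.0660 (A) and 0.0877 (B) unnormalized FPKM in SE DOX and 0.1003 (A) and 0.0627 (B) in SE vehicle. It was at 0.0319 (A) and 0.0826 (B) in WT DOX and 0.0585 (A) and 0.0665 (B) in WT vehicle. No group stood apart, and every library lay far under 1. IFNAR1, by contrast, was at 21.4 (A) and 19.7 (B) in SE DOX, 20.7 (A) and 19.5 (B) in SE vehicle, 21.3 (A) and 19.8 (B) in WT DOX and 22.0 (A) and 18.9 (B) in WT vehicle. IL10RB averaged 14.3 and IFNAR2 12.02 FPKM over the 8 libraries. The cells held RNA for both type I receptor chains and almost none for one chain of the type II receptor.

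Of the 60 genes, 56 (93.3%) averaged at least 1 unnormalized FPKM over the 8 libraries, while 48.0% of all gene rows did. Of 84 further listed genes of the chromosome with a row, HMGN1 included, 41 did. The share of the set therefore depends on which genes were listed. It is not read as a trait of the chromosome, over all of which no share was taken. The other 4 were BACE2, a protease that cleaves the amyloid precursor, COL6A1, a chain of type VI collagen, IFNGR2 and C2CD2, a membrane-associated lipid-binding protein. BACE2 was listed at 0 in all 8 libraries. COL6A1 was listed at 0.01 in each SE library and at 0 in each WT library, values too low to read as a difference. C2CD2, just under the threshold, averaged 0.613 with a range of 0.511 to 0.719. Just above it stood CBR3, a carbonyl reductase, at 1.49. The count was 57 with a threshold of 0.5 and 51 with a threshold of 5.

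Levels spanned more than the threshold shows: 4 genes averaged over 100 FPKM, 39 lay between 10 and 100 and 13 between 1 and 10. The median of the 56 was 19.8, beside 15.0 for all 11163 genes tested. SOD1, the cytosolic superoxide dismutase, was highest at 263 FPKM, followed by CCT8, a subunit of the chaperonin that folds actin and tubulin, at 252, and by U2AF1, the splicing factor that reads the 3' splice site, at 233. PSMG1, an assembly chaperone of the proteasome, averaged 112. The fifth was GART, a trifunctional enzyme of purine synthesis, at 80.6, with SUMO3, a small ubiquitin-like modifier, close behind at 80.1. U2AF1 and CBS have near-identical copies in the later build, and whether such copies bear on the hg19 values given here was not tested.

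By role, the 6 genes of protein folding and ubiquitin or SUMO pathways had the highest median, 67.1 FPKM, and the 8 of RNA processing and ribosome assembly came next at 41.2, led by U2AF1 and by SON, a splicing cofactor, at 77.7. The 5 transcription factors were all expressed, with ETS2 at 63.9, RUNX1, a master regulator of blood development, at 32.4, GABPA at 19.2, PKNOX1 at 6.83 and BACH1, a repressor of heme oxygenase, at 6.49. The 8 chromatin and replication genes had a median of 16.5, led by the histone H2A deubiquitinase USP16 at 35.3 and the arginine methyltransferase PRMT2 at 30.0. All 11 metabolic enzymes and transporters were expressed, with a median of 16.5 and a range of 1.49 to 263. Trafficking and membrane genes (7 of 8 expressed, median 17.3) were led by TMEM50B at 29.3 and PTTG1IP at 23.3. In the kinase and signalling group TTC3, a ubiquitin ligase that acts on AKT, had 23.2 and DYRK1A 22.8. Among surface and matrix genes APP reached 72.1 and ITGB2, the beta-2 integrin chain of leukocytes, 15.6, while the other 2 were the near-silent BACE2 and COL6A1. PCNT, a scaffold of the centrosome, averaged 11.2.

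**Figure D1:**
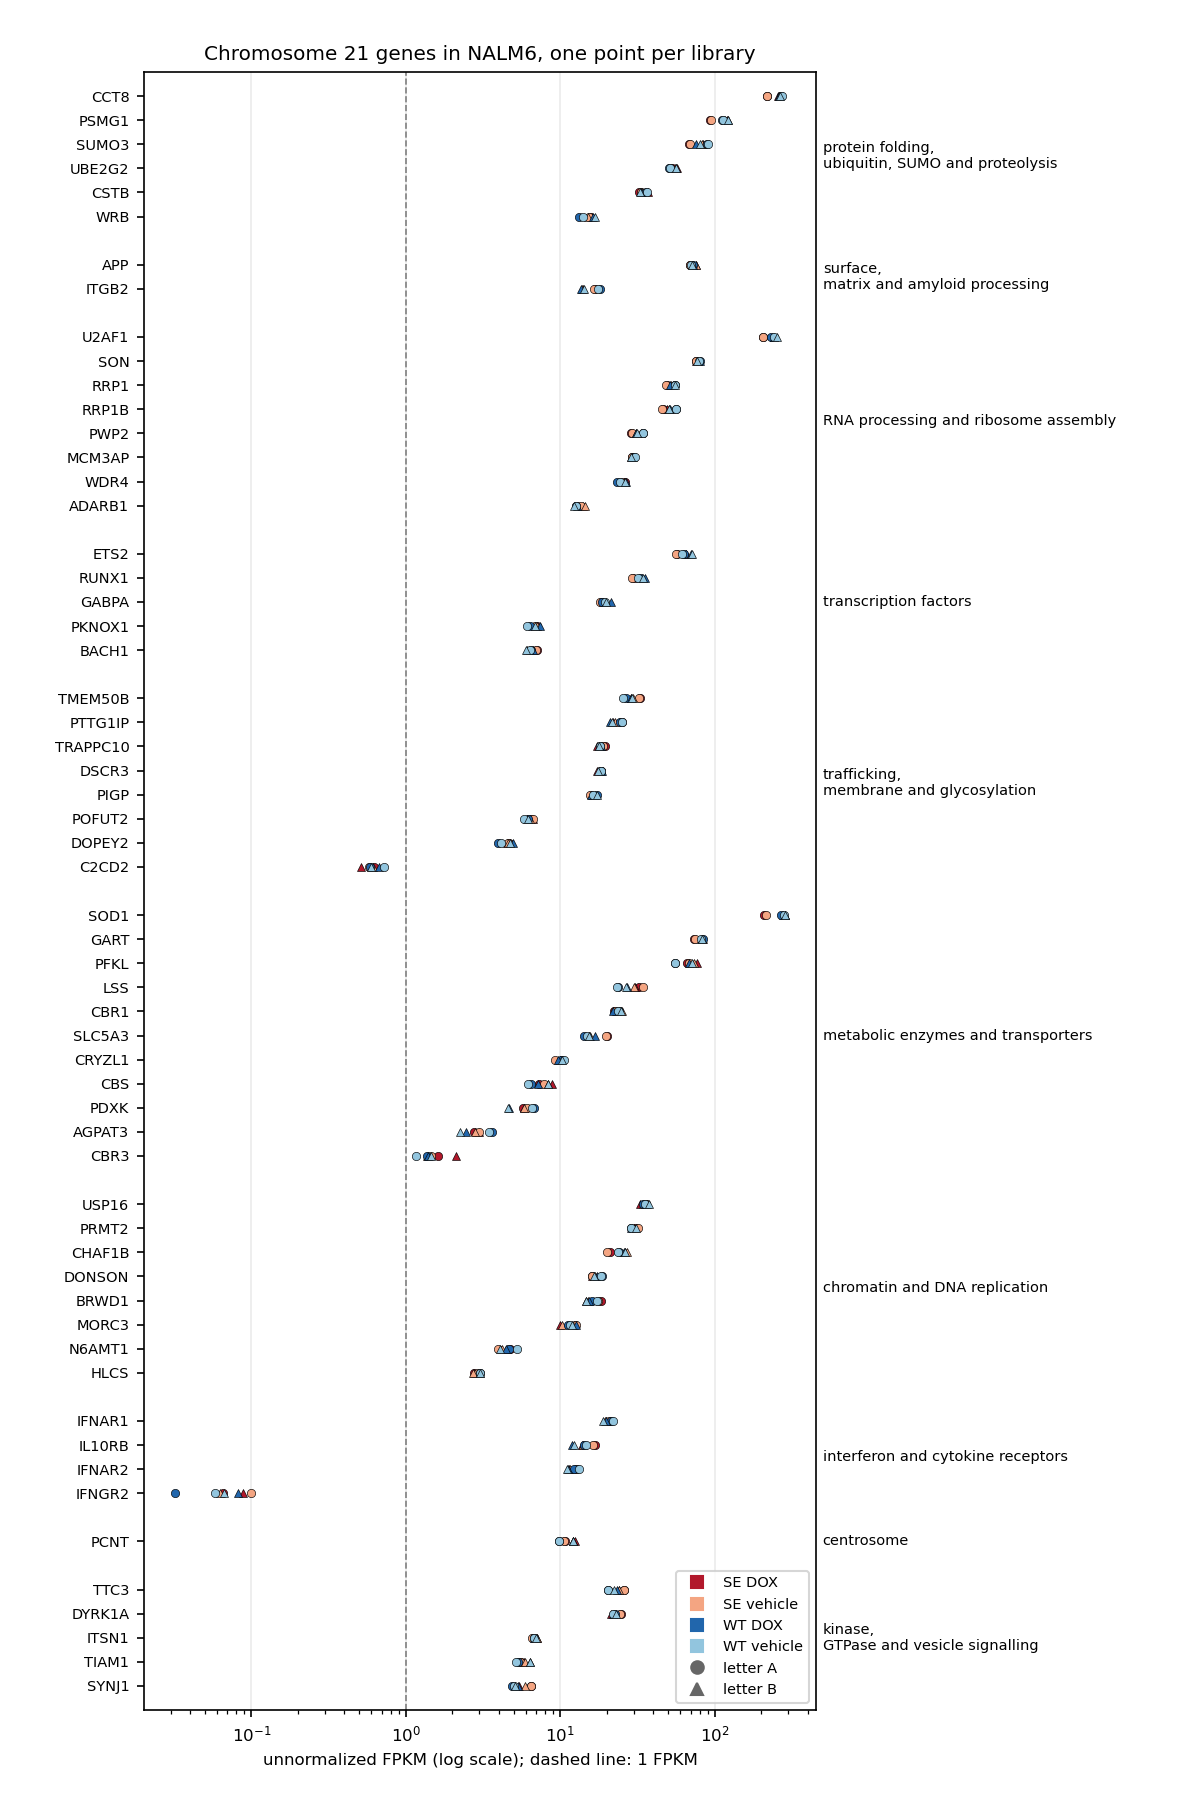
Unnormalized FPKM (log axis) of the genes in each of the 8 libraries, grouped by role, with colour for group and symbol for letter; BACE2 and COL6A1, listed at 0 or 0.01, are not drawn. The 8 points of nearly every expressed gene lie close together, and IFNGR2 and C2CD2 lie left of the 1 FPKM line.

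Variation over the libraries was small on the unnormalized scale. The highest library was a median of 1.22 times the lowest over the 56 genes. MCM3AP, a factor of mRNA export, varied least at 1.07 times, and only CBR3 (1.82) and AGPAT3 (1.62), an acyltransferase of phospholipid synthesis, exceeded 1.5. On the spike-in scale the median was 1.82 times, and 55 of the 56 had their lowest value in SE DOX letter A, the library with the largest spike-in share. Whether that library holds less RNA per cell or more spike-in cannot be told apart.

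Against this background, no gene of the set passed the test for DOX in either construct. In SE, limma on log2(spike-in-normalized FPKM + 0.1), with Benjamini-Hochberg adjustment over all genes tested and a threshold of 0.05, called 0 of 56, and 0 had an unadjusted p under 0.05. Over all genes it called 0.00896%, a single gene, and 33 had an unadjusted p under 0.05. This fit leaves the letters unpaired. Fold changes here and below are on this log2 scale, which understates those of low genes. The median of the 56 was -0.24, the same as that of all genes, and the A and B pairs had medians of -0.34 and -0.14. Without SE DOX letter A the median was -0.04. ADARB1, an adenosine deaminase that edits RNA, was at 9.04 (A) and 12.8 (B) normalized FPKM in SE DOX and 12.2 (A) and 14.4 (B) in SE vehicle. The groups overlap, and its log2 fold change was -0.30 (standard error 0.22, limma adjusted p = 0.506). SYNJ1, a phosphoinositide phosphatase of synaptic vesicle recycling, was at 4.62 (A) and 4.96 (B) in SE DOX and 5.80 (A) and 5.98 (B) in SE vehicle. These did not overlap, with a log2 fold change of -0.29 (standard error 0.20, limma adjusted p = 0.506), close to the shift of all genes. DSCR3, a component of an endosomal retrieval complex, also had -0.29.

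That shift was gone on the unnormalized scale. limma called 0 of 56 for DOX in SE (background 0%, with 13 of all genes and 0 of the 56 at an unadjusted p under 0.05), and the median was -0.00155, beside -0.000652 for all genes. Values ran from -0.06 for ADARB1 to 0.37 for CBR3. CBR3 was at 1.62 (A) and 2.11 (B) unnormalized FPKM in SE DOX and 1.46 (A) and 1.38 (B) in SE vehicle. Both DOX libraries lay above both vehicle libraries, but the difference came mostly from letter B and did not pass (standard error 0.19, unadjusted p = 0.0912, limma adjusted p = 1.00). SYNJ1 had -0.06 on this scale. The 95% intervals of the 56 genes reached a median of 0.46 to either side on the spike-in scale and 0.24 unnormalized. These widths belong to a fit that leaves the letters unpaired, and with the letter as a block they were 0.21 and 0.0912, still with 0 of 56 called. On the spike-in scale 39 of the 56 then had an unadjusted p under 0.05 for DOX in SE (smallest limma adjusted p = 0.0563). The lack of such genes above thus rests on the unpaired fit. On the unnormalized scale, without the shift of all genes, 1 did. The matching counts over all genes in the block fit are not given, so these counts are no result about the set. On the spike-in scale the median of the 56 was -0.24, as for all genes.

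In WT, whose construct encodes the nucleosome-binding protein, the set gave no call either. limma called 0 of 56 for DOX in WT on the spike-in scale (background 0%, with 14 of all genes and 0 of the 56 at an unadjusted p under 0.05). The median was -0.03, as for all genes, with pair medians of -0.02 (A) and -0.04 (B). CBS, the first enzyme of transsulfuration, was at 8.12 (A) and 7.59 (B) normalized FPKM in WT DOX and 7.86 (A) and 9.20 (B) in WT vehicle, a log2 fold change of -0.11 (standard error 0.21, limma adjusted p = 1.00). WRB, the HMGN1 neighbour that helps insert tail-anchored proteins, was at 16.4 (A) and 17.3 (B) in WT DOX and 17.9 (A) and 18.3 (B) in WT vehicle. Its groups did not overlap, but the change of -0.10 (standard error 0.21, limma adjusted p = 1.00) was smaller than its error. CRYZL1, a quinone oxidoreductase-like protein, had -0.10. On the unnormalized scale 0 of 56 were called again (background 0%, 15 of all genes and 0 of the 56 at an unadjusted p under 0.05), with values from -0.08 for CBS to 0.09 for CBR3. Without WT vehicle letter A the spike-in median was 0.06, and without WT DOX letter B it was 0.09, so its sign is not fixed.

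The difference of the DOX effects, SE minus WT, called 0 of 56 as well (limma, 0.00896% of all genes called, 16 of all genes and 0 of the 56 at an unadjusted p under 0.05). With the letter as a block 4 of the 56 had an unadjusted p under 0.05 (smallest limma adjusted p = 0.367). The matching count over all genes is not given, so the 4 are no result about the set. The median of the difference was -0.20, beside -0.21 for all genes, and -0.04 without SE DOX letter A. BACH1, DSCR3 and ADARB1 had the most negative values, each -0.30 (limma adjusted p = 0.817 each). BACH1 was at 5.04 (A) and 5.53 (B) normalized FPKM in SE DOX and 6.32 (A) and 6.40 (B) in SE vehicle, and at 8.14 (A) and 7.06 (B) in WT DOX and 8.16 (A) and 6.66 (B) in WT vehicle. DSCR3 was at 12.9 (A) and 15.7 (B) in SE DOX and 16.6 (A) and 18.4 (B) in SE vehicle, and at 23.0 (A) and 19.8 (B) in WT DOX and 23.2 (A) and 19.3 (B) in WT vehicle. In both genes the SE DOX libraries lay below SE vehicle, and the WT groups overlapped. On the unnormalized scale limma called 0 of 56 (background 0%, 11 of all genes and 0 of the 56 at an unadjusted p under 0.05), with values from -0.10 to 0.28.

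**Figure D2:**
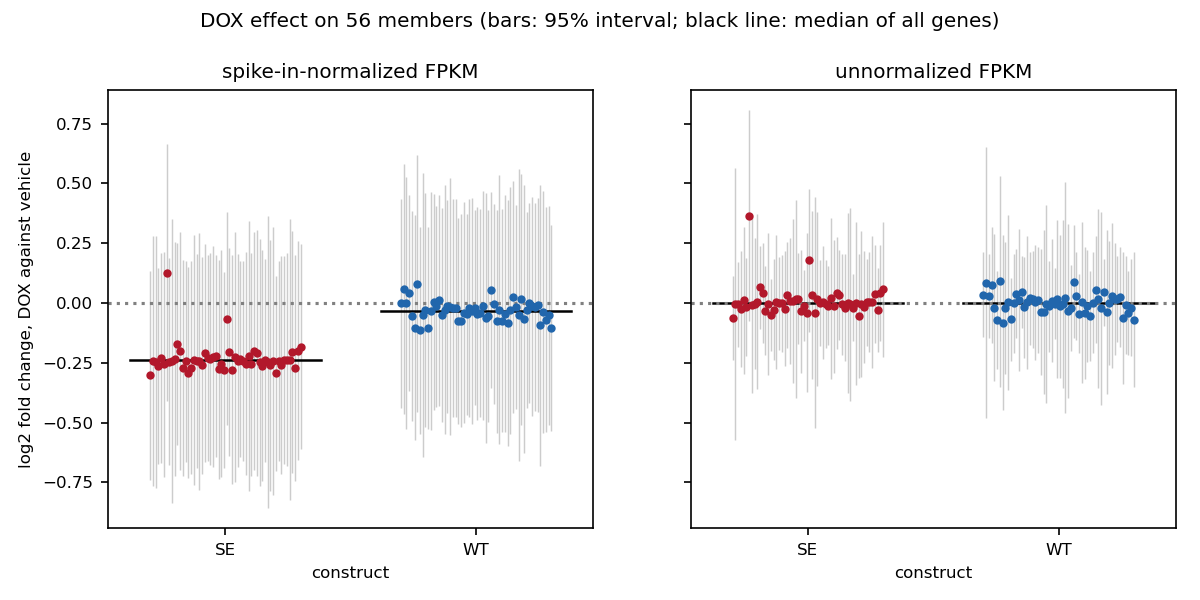
Log2 fold change of DOX against vehicle for the 56 tested genes in SE and in WT, on the spike-in-normalized scale (left) and the unnormalized scale (right), with 95% intervals and the median of all genes as a black line. The genes follow the line in each panel, at -0.24 in SE on the spike-in scale, and CBR3 in SE stands highest on both scales.

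The constructs were compared over 2 means each, taking the DOX and vehicle libraries of a letter together. limma called 0 of 56, with 6 at an unadjusted p under 0.05, while 1.85% of all genes were called on the spike-in scale and 3019 had an unadjusted p under 0.05. All 56 values were below 0, from -0.60 to -0.07, with a median of -0.41 beside -0.43 for all genes. SOD1 was at 147 (A) and 259 (B) normalized FPKM in SE DOX and 195 (A) and 275 (B) in SE vehicle, and at 332 (A) and 302 (B) in WT DOX and 352 (A) and 305 (B) in WT vehicle. All SE libraries lay below all WT libraries, with a log2 fold change of -0.60 (standard error 0.33, limma adjusted p = 0.185). RRP1B, a nucleolar protein of ribosome assembly, was at 32.6 (A) and 44.8 (B) in SE DOX and 41.0 (A) and 50.4 (B) in SE vehicle, and at 69.0 (A) and 54.3 (B) in WT DOX and 71.1 (A) and 55.0 (B) in WT vehicle. Again nothing overlapped, at -0.57 (standard error 0.28, limma adjusted p = 0.185). CCT8 had -0.56. Of the fits with a library left out, that without SE vehicle letter B had the most calls over all genes. DONSON, a replication fork protein, was among them, so its call does not set it apart.

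Most of this was the shift shared by all genes. On the unnormalized scale limma called 0 of 56, with 1 at an unadjusted p under 0.05 (0.0537% of all genes called, 679 at an unadjusted p under 0.05), and the median was 0.000739. That gene was LSS, lanosterol synthase of the cholesterol pathway. It was at 32.5 (A) and 30.4 (B) unnormalized FPKM in SE DOX and 34.5 (A) and 30.0 (B) in SE vehicle, and at 23.6 (A) and 26.9 (B) in WT DOX and 23.3 (A) and 26.8 (B) in WT vehicle. All SE libraries lay above all WT libraries, a log2 fold change of 0.34 (standard error 0.10, limma adjusted p = 0.714). On the spike-in scale its value was -0.07, so its direction depends on the scale.

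Genes whose 4 SE libraries did not overlap their 4 WT libraries were then listed, on unnormalized values, a count chosen after the values were seen and in which libraries of 1 letter are near copies. By this count 4 of the 56 (7.14%) lay higher in SE, beside 8.09% of all genes, and 2 (3.57%) lay lower in SE, beside 11.8% of all genes. The higher ones were LSS, SYNJ1, TTC3 and POFUT2, a fucosyltransferase of thrombospondin repeats. SYNJ1 was at 6.47 (A) and 5.43 (B) FPKM in SE DOX and 6.42 (A) and 5.91 (B) in SE vehicle, and at 4.84 (A) and 5.32 (B) in WT DOX and 5.05 (A) and 5.09 (B) in WT vehicle. TTC3 was at 25.7 (A) and 24.2 (B) in SE DOX and 25.7 (A) and 24.0 (B) in SE vehicle, and at 20.4 (A) and 23.2 (B) in WT DOX and 20.5 (A) and 22.3 (B) in WT vehicle. The gaps were narrow, since the lowest SE value of each stood near the highest WT value, and the log2 fold changes of 0.25 and 0.21 did not pass (limma adjusted p = 0.757 each). The lower ones were RRP1B, at -0.16, and HLCS, the ligase that attaches biotin to carboxylases, at -0.11.

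**Figure D3:**
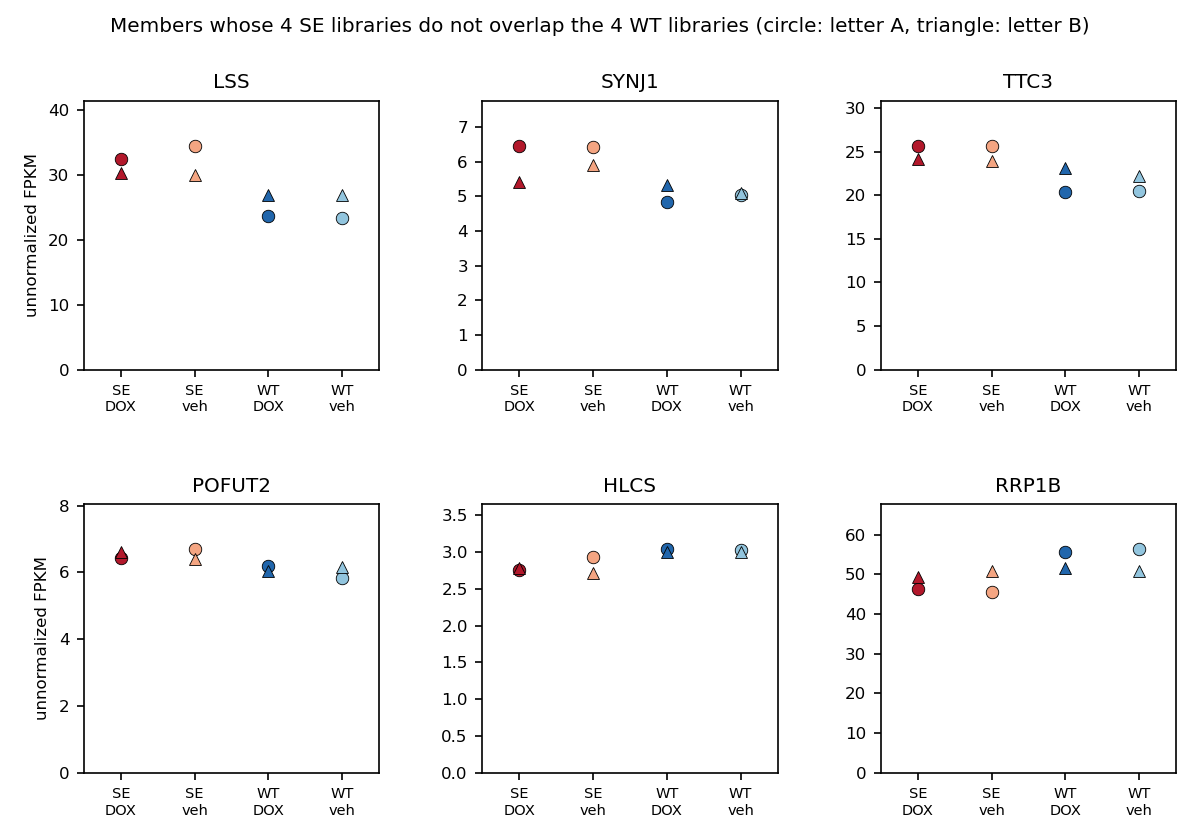
Unnormalized FPKM of the 6 genes whose SE libraries do not overlap their WT libraries, by group (SE left, WT right), with circles for letter A and triangles for letter B. LSS shows the widest gap, 30.0 to 34.5 in SE against 23.3 to 26.9 in WT, and RRP1B the reverse with almost no gap.

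In unnormalized FPKM the libraries of a construct differed more between letters than between DOX and vehicle. The median absolute log2 difference of DOX from vehicle within a letter was 0.026 to 0.051 over the 4 pairs, whereas that of A from B within a treatment was 0.111 to 0.139. All genes behaved likewise, at 0.037 to 0.054 and 0.111 to 0.129. The spike-in scale departed from this order in SE letter A alone, where DOX differed from vehicle by 0.340. That difference was 0.144 in SE letter B, 0.042 in WT letter A and 0.051 in WT letter B. A differed from B by 0.386 in SE DOX, 0.194 in SE vehicle, 0.224 in WT DOX and 0.189 in WT vehicle. Tests between letters used the spread between the libraries of 1 letter, so their p-values compare these replicates and not conditions. Nothing in the labels says that letter A of SE and letter A of WT share anything.

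**Figure D4:**
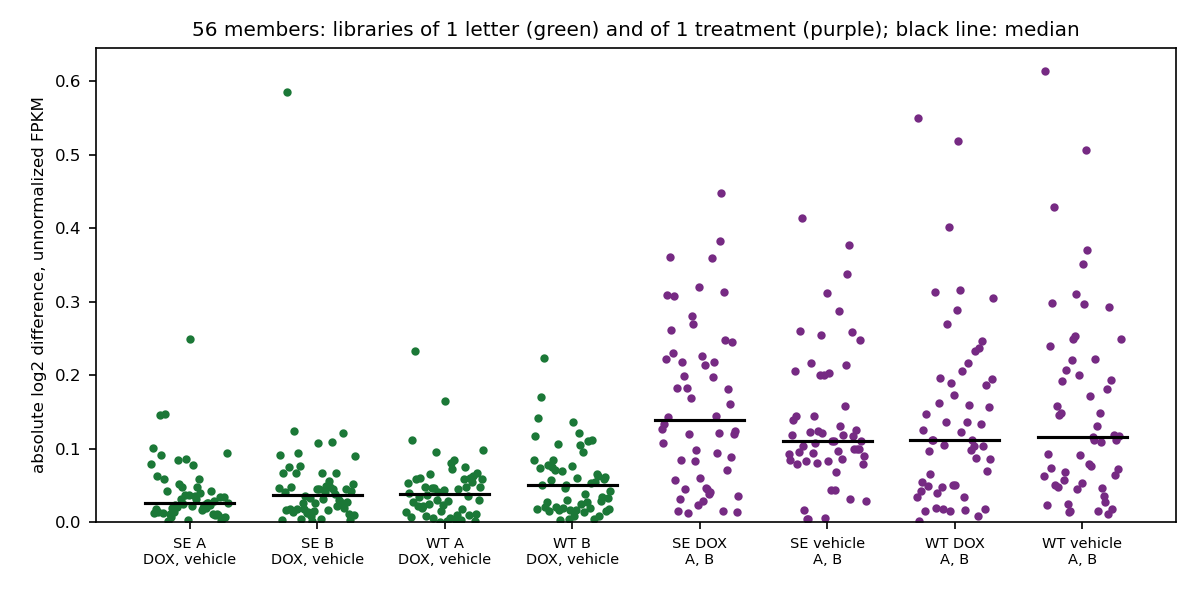
Absolute log2 difference of unnormalized FPKM for each of the 56 genes, between the DOX and vehicle libraries of 1 letter (green, 4 pairs) and between letters A and B of 1 treatment (purple, 4 pairs), with the median as a black line. The medians of the green pairs lie at 0.026 to 0.051 and those of the purple pairs at 0.111 to 0.139.

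Between the SE letters, limma on the unnormalized scale called 31 of 56 genes (55.4%), beside 40.0% of all genes. Of these, 14 (25%) were higher in A, beside 15.3% of all genes, and 17 (30.4%) were lower in A, beside 24.7%. With 1 library left out at a time, the number called moved in the set and over all genes. In the set it was lowest without SE DOX letter A or B. SOD1 had the largest change, at 208 (DOX) and 214 (vehicle) FPKM in SE letter A and 284 (DOX) and 278 (vehicle) in SE letter B. The A libraries lay well below the B libraries, with a log2 fold change of -0.41 (standard error 0.03, limma adjusted p = 0.000107). CHAF1B, a subunit of the complex that deposits histones on new DNA, was at 21.05 (DOX) and 20.2 (vehicle) in A and 26.1 (DOX) and 27.0 (vehicle) in B, a fold change of -0.36.

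The protein-folding and RNA-processing groups were lower in SE letter A wherever they passed. Of the 6 folding, ubiquitin and SUMO genes, 4 fell and 0 rose, and of the 8 RNA genes 4 fell and 0 rose. Over all genes 24.7% were lower and 15.3% higher. PSMG1 was at 93.7 (DOX) and 94.8 (vehicle) FPKM in A and 120 (DOX) and 116 (vehicle) in B, a log2 fold change of -0.32. SUMO3 was at 68.0 (DOX) and 69.3 (vehicle) in A and 84.5 (DOX) and 82.997 (vehicle) in B, at -0.29. CCT8, at 219 (DOX) and 217 (vehicle) in A and 257 (DOX) and 260 (vehicle) in B, had -0.25, and so did U2AF1, at 205 (DOX) and 205 (vehicle) in A and 243 (DOX) and 243 (vehicle) in B. In all 4 genes the letters did not overlap. RRP1, RRP1B and PWP2, nucleolar factors of ribosome assembly, were called too, at -0.13, -0.13 and -0.15. Of the transcription factors, 2 fell, ETS2 at -0.21 and RUNX1 at -0.17, while BACH1 rose by 0.18. PCNT fell as well, at -0.21.

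On the unnormalized scale, trafficking, vesicle and receptor genes were higher in SE letter A wherever they passed. Of the 7 tested trafficking genes 3 rose and 0 fell, and of the 5 kinase and vesicle genes 2 rose and 0 fell. Of the 3 tested receptors 2 rose and 0 fell, while over all genes 15.3% were higher and 24.7% lower. SLC5A3, MORC3 and ITGB2, below, belong to other groups, which went both ways. Of the metabolic genes 2 rose and 4 fell, of the chromatin genes 3 rose and 1 fell, and 1 surface gene went each way. SLC5A3, the sodium-dependent transporter of myo-inositol, was at 20.1 (DOX) and 19.8 (vehicle) FPKM in A and 15.4 (DOX) and 15.6 (vehicle) in B, a log2 fold change of 0.36 (standard error 0.05, limma adjusted p = 0.000962). It overlaps MRPS6, a mitochondrial ribosomal protein gene, whose row moved the other way at -0.49, and reads may be divided between the 2 rows. MORC3, a chromatin ATPase of nuclear bodies, was at 12.4 (DOX) and 12.7 (vehicle) in A and 9.91 (DOX) and 10.2 (vehicle) in B, at 0.32. ITGB2 was at 16.8 (DOX) and 16.6 (vehicle) in A and 14.0 (DOX) and 13.9 (vehicle) in B, at 0.26. IL10RB was at 16.8 (DOX) and 16.2 (vehicle) in A and 13.8 (DOX) and 14.1 (vehicle) in B, at 0.24. IFNAR2 rose by 0.15 and DYRK1A by 0.17. Each of these stood higher in both A libraries than in both B libraries. On the spike-in scale the trafficking, kinase and vesicle, and receptor groups had medians of -0.22, -0.16 and -0.11. There 3, 2 and 0 of their genes were called lower in A and 0 higher, beside 58.4% of all genes lower and 2.28% higher.

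Between the WT letters, limma on the unnormalized scale called 30 of 56 genes (53.6%), beside 45.7% of all genes. Of these, 13 (23.2%) were higher in A, beside 23.4% of all genes, and 17 (30.4%) were lower in A, beside 22.2%. With 1 library left out at a time, the number called moved in the set and over all genes. In the set it was lowest without any 1 WT library. AGPAT3 was at 3.62 (DOX) and 3.48 (vehicle) FPKM in WT letter A and 2.44 (DOX) and 2.24 (vehicle) in WT letter B. The letters did not overlap, with a log2 fold change of 0.58 (standard error 0.08, limma adjusted p = 0.000580). PDXK, the kinase that activates vitamin B6, was at 6.72 (DOX) and 6.59 (vehicle) in A and 4.66 (DOX) and 4.61 (vehicle) in B, at 0.51.

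ITGB2 and the cytokine receptors were higher in WT letter A too. All 3 tested receptors passed, IL10RB at 0.26, IFNAR2 at 0.19 and IFNAR1 at 0.16, beside 23.4% of all genes higher in A. IL10RB was at 14.3 (DOX) and 14.6 (vehicle) FPKM in A and 11.9 (DOX) and 12.3 (vehicle) in B. ITGB2 was at 18.2 (DOX) and 17.7 (vehicle) in A and 13.7 (DOX) and 14.2 (vehicle) in B, a fold change of 0.36. SUMO3, lower in letter A of SE, was here higher in A, at 89.8 (DOX) and 90.4 (vehicle) against 76.2 (DOX) and 79.7 (vehicle) in B, or 0.21. PTTG1IP, at 24.4 (DOX) and 25.2 (vehicle) in A and 20.99 (DOX) and 21.6 (vehicle) in B, had 0.22.

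Of the genes lower in WT letter A, PFKL, the liver-type phosphofructokinase of glycolysis, was at 54.9 (DOX) and 55.2 (vehicle) FPKM in A and 68.4 (DOX) and 71.3 (vehicle) in B, a log2 fold change of -0.34 (standard error 0.03, limma adjusted p = 0.000150). PCNT was at 9.86 (DOX) and 9.87 (vehicle) in A and 12.1 (DOX) and 12.1 (vehicle) in B, at -0.29. WRB, at 13.2 (DOX) and 14.1 (vehicle) in A and 16.3 (DOX) and 16.8 (vehicle) in B, had -0.28. In each of them both A libraries lay below both B libraries. TIAM1, an exchange factor for the GTPase RAC1, was at 5.35 (DOX) and 5.15 (vehicle) in A and 6.36 (DOX) and 6.33 (vehicle) in B, at -0.27. LSS was at 23.6 (DOX) and 23.3 (vehicle) in A and 26.9 (DOX) and 26.8 (vehicle) in B, at -0.19. ETS2 was at 62.9 (DOX) and 61.9 (vehicle) in A and 70.4 (DOX) and 71.4 (vehicle) in B, at -0.18. The 11 metabolic genes divided, with 2 higher and 4 lower in A, and of the 5 transcription factors 3 were lower and 0 higher. Over all genes 23.4% were higher and 22.2% lower.

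**Figure D5:**
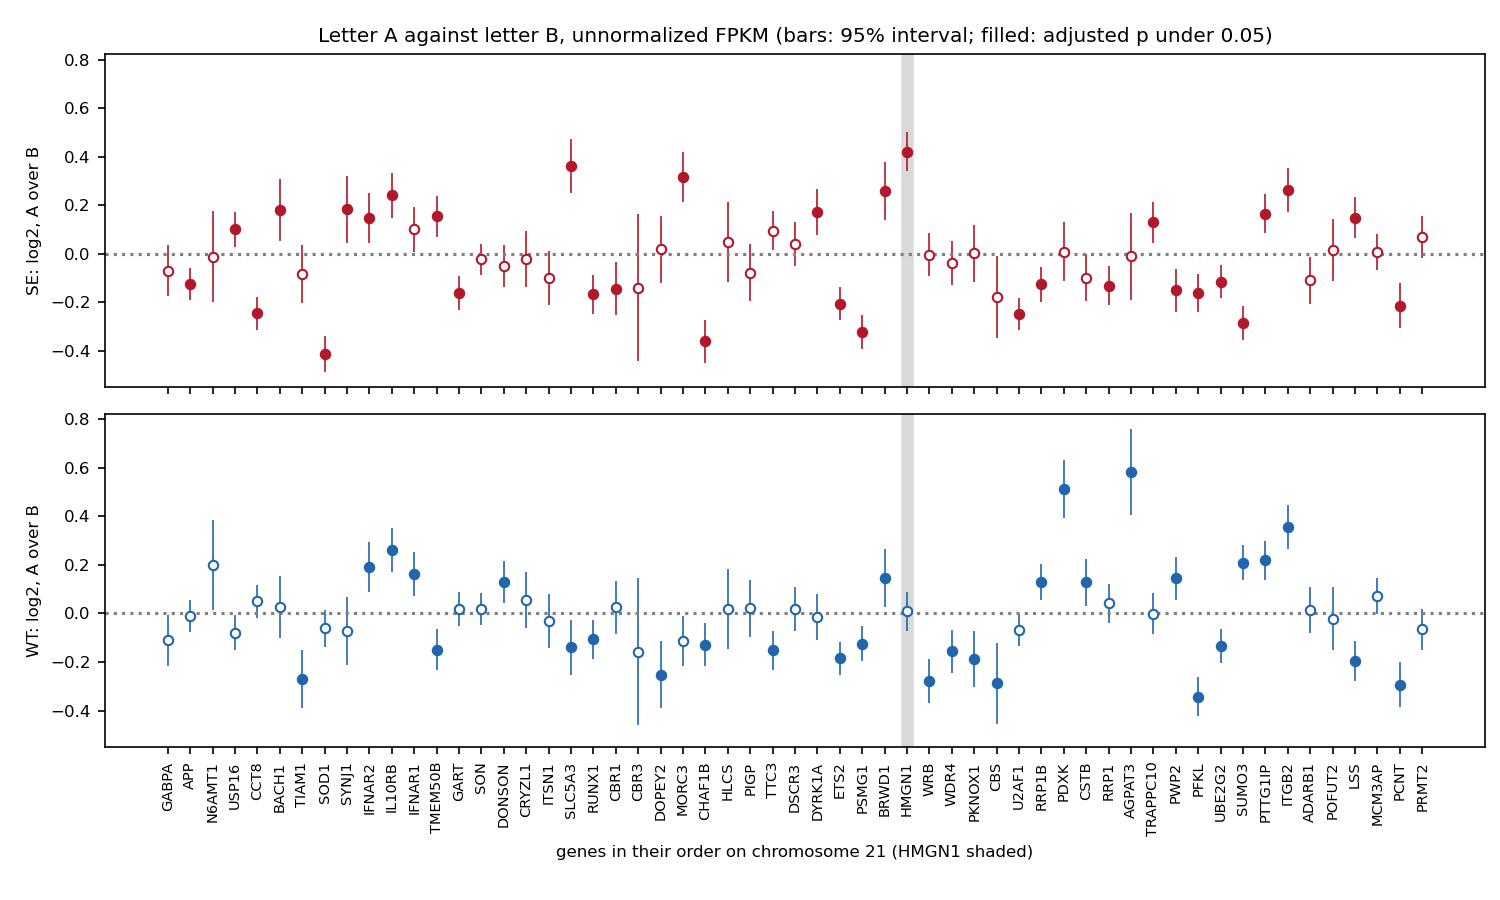
Log2 fold change of letter A over letter B on the unnormalized scale for the 56 tested genes and HMGN1 (shaded), in their order along chromosome 21, for SE (top) and WT (bottom), with 95% intervals and filled points for limma adjusted p under 0.05. Called genes of both signs stand in each panel, and HMGN1 stands at 0.42 in SE and 0.01 in WT.

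Around HMGN1 its neighbours were followed between the letters, in unnormalized FPKM. Every library carries an HMGN1 construct, so the HMGN1 row need not reflect the chromosome alone, which was not tested. HMGN1 itself was higher in SE letter A, at 0.42 (standard error 0.03, limma adjusted p = 0.000138), and had 0.01 (standard error 0.03, limma adjusted p = 0.841) between the WT letters. Its flanking gene BRWD1, a bromodomain protein, was at 18.2 (DOX) and 17.5 (vehicle) FPKM in SE letter A and 14.7 (DOX) and 15.1 (vehicle) in SE letter B, a fold change of 0.26. On the other flank WRB had -0.00384 in SE, and PSMG1, beyond BRWD1, had -0.32. In WT, where HMGN1 did not pass, BRWD1 had 0.15 and WRB -0.28, and both passed. The 14 tested genes between CBR1 and FAM3B, about the critical region, had a median of 0.00681 in SE and -0.12 in WT, while the 42 outside it had -0.03 and 0.00684.

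On the spike-in scale the letters of a construct differed by a shift of all genes, which set most directions. In SE limma called 37 of 56 (66.1%), beside 60.6% of all genes. All 37 were lower in A (background 58.4%) and 0 were higher (background 2.28%), with a median of -0.28 beside -0.27 for all genes. The 12 of smallest p were CHAF1B, PCNT, SOD1, PSMG1, CBS, SUMO3, ETS2, RUNX1, CBR1, ADARB1, PWP2 and ITSN1, an endocytic scaffold, with values from -0.66 for SOD1 to -0.35 for ITSN1. CHAF1B was at 14.8 (DOX) and 18.2 (vehicle) normalized FPKM in SE letter A and 23.7 (DOX) and 26.8 (vehicle) in SE letter B, at -0.62 (standard error 0.11, limma adjusted p = 6.14e-07). When any 1 WT library was left out, most of these calls were lost, so most need all 4 WT libraries in the fit. Without WT DOX letter B most calls over all genes were lost too.

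In WT the spike-in shift went the other way. limma called 21 of 56 (37.5%), beside 44.3% of all genes. All 21 were higher in A (background 42.0%) and 0 were lower (background 2.34%), with a median of 0.21 beside 0.22 for all genes. The 12 of smallest p were PDXK, AGPAT3, ITGB2, IL10RB, IFNAR2, PTTG1IP, IFNAR1, BRWD1, SUMO3, DONSON, PWP2 and N6AMT1, a methyltransferase subunit, with values from 0.35 for DONSON to 0.78 for AGPAT3. PDXK was at 8.50 (DOX) and 8.38 (vehicle) normalized FPKM in WT letter A and 4.99 (DOX) and 5.15 (vehicle) in WT letter B, at 0.72 (standard error 0.10, limma adjusted p = 3.57e-11). AGPAT3 was at 4.68 (DOX) and 4.46 (vehicle) in A and 2.66 (DOX) and 2.57 (vehicle) in B. With 1 library left out at a time, the number called in the set fell without any 1 WT library and rose without any 1 SE library. It moved widely over all genes too, so neither is a result about the set.

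CHAF1B, PCNT, SOD1, PSMG1, SUMO3, ETS2 and RUNX1 were lower in SE letter A on both scales. So were CCT8, U2AF1, RRP1, RRP1B and PWP2. PDXK, AGPAT3, ITGB2, IL10RB, IFNAR2, IFNAR1, PTTG1IP and SUMO3 were higher in WT letter A on both scales. SLC5A3 in SE, at 0.10 on the spike-in scale, and PCNT in WT, at -0.07, passed on the unnormalized scale alone. They were not the only ones. None of the 14 genes called higher in SE letter A on the unnormalized scale was called higher on the spike-in scale. Likewise none of the 17 called lower in WT letter A was called lower there.

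Further genes of the chromosome were counted beside the set. Of 87 listed, HMGN1 included, 84 had a row and 41 were tested. limma called 0 of the 41 for DOX in either construct, for the difference and for SE against WT, on either scale. Between letters on the unnormalized scale it called 22 of 41 (53.7%) in SE, beside 40.0% of all genes. In WT it called 27 of 41 (65.9%), beside 45.7% of all genes. Some moved further than any of the 56. TMPRSS3, a membrane serine protease, was at 11.8 (DOX) and 11.9 (vehicle) FPKM in WT letter A and 2.004 (DOX) and 1.98 (vehicle) in WT letter B, a log2 fold change of 2.52 (standard error 0.06, limma adjusted p = 1.44e-07). NRIP1, a nuclear receptor corepressor, was at 11.6 (DOX) and 11.3 (vehicle) in WT letter A and 23.6 (DOX) and 21.8 (vehicle) in WT letter B, at -0.98. MX1, an interferon-induced antiviral GTPase, was at 2.46 (DOX) and 2.40 (vehicle) in SE letter A and 0.768 (DOX) and 0.554 (vehicle) in SE letter B, at 1.75. These 3 were chosen after their values were seen.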

How the data were processed

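The authors deposited 2 tables of FPKM with the same rows, unnormalized and spike-in-normalized, for poly(A) RNA of 8 libraries. HISAT, Cufflinks 2.0.0 and hg19 were used, per the submitters' processing notes, and the sources used here give no normalization method. Each RNA sample came from an equal number of cells and received 1 µl of ERCC mix diluted 1000-fold, per the labels' protocols. In the normalized table spike-in sums were 7050 to 7166 and rows at 0 stand on a floor of up to 0.135. The files hold no counts, so depth is unknown and no counting interval is given. Strand is not marked, so overlapping genes cannot be told apart.

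With limma 3.58.1 (R 4.3.3), a model with trended empirical Bayes was fitted to log2(FPKM + 0.1) of genes with a mean of at least 1 normalized FPKM, leaving out spike-ins and small RNA names, 11163 genes in all. P-values measure only the spread between these libraries. DOX comparisons used 4 group means. SE against WT used letter means. Letters were compared with a DOX effect per construct. Genes and lists were chosen with earlier results of these data known. Named are HMGN1, the 5 highest and all genes under the minimum, called genes (at most 12 a comparison), the 3 largest changes a comparison and the 2 most abundant a role, and further members were named after their values were seen. Both scales were reported. Other scalings, pseudocounts, filters, the replicate block and left-out libraries were tried. The fit was tested on simulated data.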

Additional observations from a re-analysis of the deposited data

Results flagged for a closer look

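For 4 genes both SE pairs fell and both WT pairs rose with DOX on the spike-in scale, while the test of the difference did not pass (limma adjusted p = 0.817 each). The effect in SE minus that in WT was -0.30 for AGPAT3, with -0.41 (A) and -0.08 (B) in SE and 0.07 (A) and 0.05 (B) in WT. It was -0.29 for PKNOX1, a homeodomain factor, with -0.29 (A) and -0.18 (B) in SE and 0.06 (A) and 0.05 (B) in WT. RUNX1 also had -0.29, with -0.33 (A) and -0.20 (B) in SE and 0.04 (A) and 0.01 (B) in WT. SON had -0.28, with -0.37 (A) and -0.15 (B) in SE and 0.00693 (A) and 0.02 (B) in WT. These 4 are 7.14% of the 56 tested, beside 9.50% of all genes with the same signs, and the median difference over all genes was -0.21. On the unnormalized scale the SE pairs of AGPAT3 (-0.10 in A and 0.09 in B), PKNOX1 (0.05 in A and -0.04 in B) and RUNX1 (0.03 in A and -0.07 in B) had unequal signs, and of the 4 SON alone kept the pattern. Without SE DOX letter A the spike-in differences were -0.09 for AGPAT3, -0.14 for PKNOX1, -0.04 for RUNX1 and -0.09 for SON, beside a median of -0.02 over all genes.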

How the results depend on the processing

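No gene of the set was called for DOX in SE, for DOX in WT or for their difference under any alternative tried: the unnormalized table, equal library medians, a pseudocount of 1, no filter, small RNA names kept, each library left out in turn, the replicate block on either table and, for the 2 DOX comparisons, the libraries of 1 construct alone. SE against WT gave 0 to 1 without single libraries. Letters in SE gave 1 to 49 on the spike-in scale and 16 to 32 on the unnormalized scale (21 without SE vehicle letter A or B), where the combination with left-out libraries was chosen after the data were seen. Letters in WT gave 2 to 43 and 19 to 30. CRYZL1 for DOX in WT, -0.10, ran from -0.25 to 0.0453 without single libraries (0.0227 without WT vehicle letter A). Of the other values of named genes, 574 kept direction and side of the threshold and 138 lost the call. The cause was not tested. The labels do not say what libraries of 1 letter share beyond being 1 replicate, and the 2 letters are too few to settle a pairing. Same-letter deviations correlated across 11163 genes at 0.739 in SE and 0.767 in WT (0.720 and 0.753 unnormalized). With the replicate block 320 genes were called for DOX in SE, 17 in WT and 31 for the difference, and 0 on the unnormalized table. Of the 56, 39 then had an unadjusted p under 0.05 for DOX in SE (smallest limma adjusted p = 0.0563), and 1 did on the unnormalized table. The matching counts over all genes are not given.

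Counts over all genes moved more. DOX in SE called 1 gene, 0 on the unnormalized table, with equal medians, with pseudocount 1 or without the filter, 6 with small RNA names, 9 with SE alone and 0 to 8 without single libraries. DOX in WT called 0, 8 with small RNA names and 0 to 20 without single libraries. The difference called 1, 0 under the same 4 settings, 9 with small RNA names and 0 to 11 without single libraries. SE against WT called 206, 6 unnormalized, 5 with equal medians, 603 without the filter, 338 with small RNA names, 55 in vehicle alone, 520 in DOX alone and 72 to 1547 without single libraries. Letters in SE called 6770, 4469 unnormalized, 4383 with equal medians and 706 to 9060 without single libraries. Letters in WT called 4945, and 506 to 8374 without single libraries. FPKM carries no counts, so the part of depth in the spread between libraries was not tested.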
